A study of Homo sapiens with 6 samples.

Results

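The genes described here are 9 regulators and effectors of the Golgi stress response, found in the deposited count table by their mouse Ensembl identifiers (IDs): Tfe3, Tfeb, Mitf, Mlx, Creb3, Creb3l1, Creb3l2, Arf4 and Serpinh1. All 9 were among the 34866 rows of the table, and 8 of them were among the 11400 rows with enough counts to be tested. The gene symbols were given with the list of IDs, since the table itself holds no symbols. RNA was sequenced from MKN45, an established human gastric cancer cell line described as lacking MUC6, after adenoviral delivery of a short hairpin RNA (shRNA). One group of 3 samples received a control shRNA and the other group of 3 GOLPH3 shRNA, so both groups had been exposed to adenovirus. The sample titles number the GOLPH3 shRNA samples and do not say whether they share the same hairpin. The numbers are called replicates below. The hairpin sequences, the time after infection and the origin of the 3 samples per group (separate cultures or not) are not stated in the sources read for this report, so p-values measure the spread between these samples only, which may be technical.

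The Golgi stress response is a set of transcriptional pathways that adjust the capacity of the Golgi when its glycosylation or transport functions are overloaded. In one arm, the transcription factor TFE3 enters the nucleus and binds the Golgi apparatus stress response element in the promoters of genes for Golgi structure, vesicle transport and glycosylation, and MLX can oppose it at that element. In another arm, the membrane-anchored factor CREB3 is cut by Golgi proteases, enters the nucleus and raises ARF4, a small GTPase of Golgi membranes, while the collagen chaperone HSP47, encoded by SERPINH1, is linked to survival under Golgi stress. GOLPH3, the target of the hairpin, is a Golgi membrane protein that retains glycosyltransferases.

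The libraries held 6287037 to 7355140 estimated counts in the control group and 4977645 to 5676169 in the GOLPH3 shRNA group. Counts were filed under mouse IDs and the submitters' processing notes name the mouse build mm10, whereas the samples are labelled human. The table does not show whether human reads were matched to mouse gene models or whether the RNA was of mouse origin, and a value below is therefore the count assigned to an ID and not an abundance. GOLPH3 itself, cell type markers and the other Golgi stress genes listed by symbol were not analysed here, because no table used here pairs their mouse IDs with symbols. The identity of the cells and the knockdown were thus not checked. In bulk RNA, fewer cells that express a gene and less RNA per cell cannot be told apart.

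Of the 9 genes, Tfe3, Creb3l2 and Arf4 rose with GOLPH3 shRNA, Creb3l1 and Mitf fell, Tfeb, Mlx and Serpinh1 did not pass the test, and Creb3 was listed at 0 in all libraries. The largest difference was that of Creb3l1, which fell 2.23-fold. Values are given as CPM, the count scaled to a common library total. The 5 genes called are 62.5% of the 8 tested, where 33.9% of all 11400 tested IDs were called (edgeR quasi-likelihood test with Benjamini-Hochberg adjustment, adjusted p below 0.05). By direction, 16.1% of all tested IDs were called higher and 17.8% lower, against 3 and 2 of the 8 tested genes. The 3 values of one group lay wholly above or below those of the other for 6 of the 8 tested genes, and for 46.3% of all tested IDs. The median log2 fold change was 0.21 over the 8 tested genes and 0.0019 over all tested IDs. With so few genes, chosen with earlier results of these data known, these shares are a description and were not tested.

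**Figure D1:**
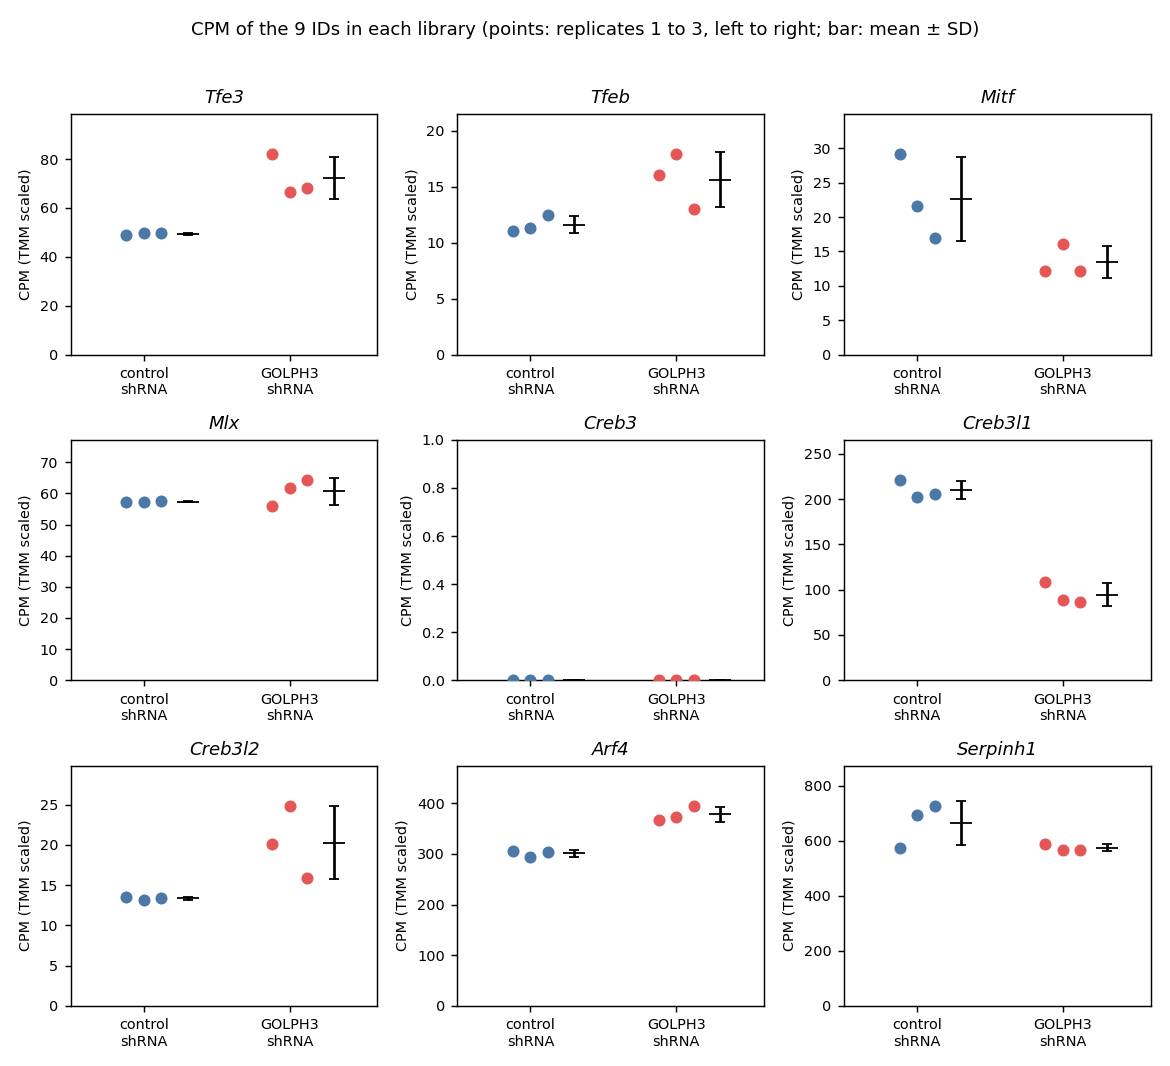
Library-scaled counts (CPM, y axis, scaled by trimmed mean factors, each panel starting at 0) of the 9 IDs in the 3 control shRNA libraries (blue) and the 3 GOLPH3 shRNA libraries (red), with mean and SD beside each group. Creb3l1 shows the widest gap, with control values from 203 to 221 CPM and GOLPH3 shRNA values from 85.8 to 109 CPM, and Creb3 is at 0 throughout.

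The CREB3 family factors are basic leucine zipper proteins held in the endoplasmic reticulum membrane and released by cleavage in the Golgi. Creb3l1 (OASIS) and Creb3l2 (BBF2H7) are members known for driving secretory pathway and extracellular matrix genes. The counts of these related genes moved in opposite directions. The 250 bases upstream of the RefSeq start of the human counterparts are shown here because the members of this family differed most in these data (GRCh38.p14, written 5′ to 3′ on the strand of the gene). The CREB3L1 window lies at chr11:46294909-46295158 on the plus strand, the first of 2 CREB3L2 windows in RefSeq at chr7:138002087-138002336 on the minus strand and the CREB3 window at chr9:35732416-35732665 on the plus strand. The other CREB3L2 window holds none of the motifs searched and is not printed. Capitals mark a match to the cAMP response element TGACGTCA or to the Golgi apparatus stress response element ACGTGGC.
CREB3L1: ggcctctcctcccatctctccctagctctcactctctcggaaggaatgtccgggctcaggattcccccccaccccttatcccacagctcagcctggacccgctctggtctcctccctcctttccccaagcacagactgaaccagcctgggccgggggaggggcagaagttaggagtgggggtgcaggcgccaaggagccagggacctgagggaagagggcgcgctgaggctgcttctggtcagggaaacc
CREB3L2: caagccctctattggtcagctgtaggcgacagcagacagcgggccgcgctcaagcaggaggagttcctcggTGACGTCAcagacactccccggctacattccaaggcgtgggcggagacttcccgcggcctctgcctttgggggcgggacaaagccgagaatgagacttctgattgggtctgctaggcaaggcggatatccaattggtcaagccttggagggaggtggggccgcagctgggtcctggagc
CREB3: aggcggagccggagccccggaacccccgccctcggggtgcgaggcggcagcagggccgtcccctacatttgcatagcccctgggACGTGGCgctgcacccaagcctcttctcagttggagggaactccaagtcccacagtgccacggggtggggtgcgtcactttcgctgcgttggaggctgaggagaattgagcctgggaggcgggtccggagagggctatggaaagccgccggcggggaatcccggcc

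Windows of 300 bases, from 250 before to 50 after a start, were found in RefSeq for 8 of the 9 human counterparts, with 14 windows in all because several genes have more than 1 start. ARF4 had no window. Each was searched on both strands for ACGTGGC, for the E-box CACGTG, which TFE/MiT factors and MLX complexes bind, and for TGACGTCA. The first motif overlaps the E-box by the letters ACGTG where they occur together. ACGTGGC was found only in the CREB3 window, starting 166 bases before the start, and it occurs in 3.22% of all 35116 human windows of that length. TGACGTCA was found 179 bases before 1 of the 2 starts of CREB3L2 and 152 bases before 1 of the 3 starts of MITF, with none of the motifs in the other windows of these genes, and occurs in 1.85% of all windows. CACGTG was found 50 bases before the start of MLX, and occurs in 7.26% of all windows. A match describes these letters and not binding, and the sequences are human while the counts stand under mouse IDs.

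Creb3l1 (ENSMUSG00000027230.9) was at 221, 203 and 206 CPM in control replicates 1, 2 and 3 and at 109, 88.1 and 85.8 CPM in GOLPH3 shRNA replicates 1, 2 and 3. All GOLPH3 shRNA values lay below all control values, by far more than the spread within either group. The mean fell from 210 ± 9.91 to 94.2 ± 12.6 CPM (SD, n = 3), a log2 fold change of -1.16 (SE 0.09, 95% interval -1.35 to -0.97, edgeR adjusted p = 1.82e-07). The values rest on 1304 to 1486 counts per control library and 475 to 536 per GOLPH3 shRNA library. Only 2.36% of the tested IDs had a lower log2 fold change.

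Creb3l2 (ENSMUSG00000038648.5) was at 13.5, 13.1 and 13.4 CPM in the control libraries and at 20.1, 24.9 and 15.9 CPM in the GOLPH3 shRNA libraries. The control values were close together, and all GOLPH3 shRNA values lay above them but were more scattered, with replicate 2 the highest and replicate 3 the lowest. Each control library held only 85.3 to 96.0 counts, so this closeness does not measure the precision of the values. The mean rose from 13.3 ± 0.231 to 20.3 ± 4.50 CPM (SD, n = 3), or 1.52-fold, a log2 fold change of 0.60 (SE 0.18, 95% interval 0.21 to 1.00, edgeR adjusted p = 0.018). The call was lost without GOLPH3 shRNA replicate 2 (log2 fold change 0.42, edgeR adjusted p = 0.11), without GOLPH3 shRNA replicate 1 (log2 fold change 0.61, edgeR adjusted p = 0.051) and without control replicate 2 (log2 fold change 0.59, edgeR adjusted p = 0.056); in the latter pair of fits the fold change was about as large as with all libraries. Creb3l2 had fractional estimates in 5 of the 6 libraries, whereas the other 8 genes had whole counts throughout, and its value is uncertain; whether its reads were divided with another gene model was not tested.

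Creb3 (ENSMUSG00000028466.15), the factor that gives the CREB3 arm its name, was listed with an estimated count of 0 in all 6 libraries. A count of 0 allows up to 3 counts, or 0.409 to 0.473 CPM in the control libraries and 0.537 to 0.608 CPM in the GOLPH3 shRNA libraries, for counting error only. Creb3 is broadly expressed in human and mouse tissues. Whether the gene was silent here or its reads were not assigned to this ID was not tested, and no change in it between the groups can be given.

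Arf4 (ENSMUSG00000021877.12), the small GTPase downstream of CREB3, was at 305, 294 and 303 CPM in the control libraries and at 366, 372 and 395 CPM in the GOLPH3 shRNA libraries. Every GOLPH3 shRNA library was above every control library, and the spread within each group was small. The mean rose from 301 ± 6.06 to 378 ± 15.4 CPM (SD, n = 3), or 1.26-fold, a log2 fold change of 0.33 (SE 0.065, 95% interval 0.19 to 0.47, edgeR adjusted p = 0.0010). With 1807 to 2188 counts in each library it was measured on more counts than any of the 9 genes but Serpinh1. The size of the increase was modest among all tested IDs, of which 23.0% had a higher log2 fold change.

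Serpinh1 (ENSMUSG00000070436.12), which encodes the collagen chaperone HSP47 of the endoplasmic reticulum, was at 576, 695 and 729 CPM in the control libraries and at 590, 568 and 568 CPM in the GOLPH3 shRNA libraries. The groups overlapped, because control replicate 1 lay below GOLPH3 shRNA replicate 1. The means were 666 ± 80.2 and 575 ± 12.7 CPM (SD, n = 3), with a log2 fold change of -0.21 (SE 0.080, 95% interval -0.38 to -0.042) that did not pass the test (edgeR adjusted p = 0.052). Serpinh1 lay close to the threshold. It was called lower in 6 of the 16 alternatives, among them the fit without control replicate 1 (log2 fold change -0.31, edgeR adjusted p = 0.0025).

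The TFE/MiT factors TFE3, TFEB and MITF are basic helix-loop-helix leucine zipper proteins that govern lysosomal and autophagy genes as well, and are regulated mainly by phosphorylation and entry into the nucleus, which RNA counts do not measure. Tfe3 rose, Mitf fell, and Tfeb did not pass the test.

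Tfe3 (ENSMUSG00000000134.17) was at 48.9, 49.6 and 49.8 CPM in the control libraries and at 81.9, 66.4 and 68.3 CPM in the GOLPH3 shRNA libraries. The control values nearly coincided and all GOLPH3 shRNA values stood above them, replicate 1 most. With 314 to 364 counts per control library, this closeness does not measure the precision of the values. The mean rose from 49.4 ± 0.489 to 72.2 ± 8.45 CPM (SD, n = 3), or 1.46-fold, a log2 fold change of 0.54 (SE 0.10, 95% interval 0.33 to 0.76, edgeR adjusted p = 0.00073). Of the tested IDs, 11.7% had a higher log2 fold change.

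Mitf (ENSMUSG00000035158.15), best known as the melanocyte lineage factor, was at 29.1, 21.5 and 17.0 CPM in the control libraries and at 12.2, 16.1 and 12.1 CPM in the GOLPH3 shRNA libraries. The groups did not overlap, but control replicate 3 lay less than 1 CPM above GOLPH3 shRNA replicate 2. The mean fell from 22.6 ± 6.11 to 13.5 ± 2.30 CPM (SD, n = 3), or 1.67-fold, a log2 fold change of -0.74 (SE 0.20, 95% interval -1.18 to -0.31, edgeR adjusted p = 0.010). The call was lost without control replicate 1, the highest control (log2 fold change -0.52, edgeR adjusted p = 0.076), and without GOLPH3 shRNA replicate 1 (log2 fold change -0.68, edgeR adjusted p = 0.052).

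Tfeb (ENSMUSG00000023990.18), the factor most studied in lysosome biogenesis, was at 11.1, 11.3 and 12.4 CPM in the control libraries and at 16.0, 17.9 and 13.0 CPM in the GOLPH3 shRNA libraries. All GOLPH3 shRNA values were above the controls, replicate 3 only narrowly. The log2 fold change of 0.43 (SE 0.19, 95% interval 0.029 to 0.83) did not pass the test (edgeR adjusted p = 0.091), and the gene had only 71 to 100 counts per library. These data do not show whether its change differed from that of Tfe3: the difference between the genes is given with the ratios.

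Mlx (ENSMUSG00000017801.15), a basic helix-loop-helix partner of the glucose-sensing Mondo proteins, was at 57.3, 57.1 and 57.5 CPM in the control libraries and at 56.0, 61.6 and 64.3 CPM in the GOLPH3 shRNA libraries. The groups overlapped, with GOLPH3 shRNA replicate 1 below all controls and the other two above them. With 365 to 419 counts per control library, the closeness of the control values does not measure their precision. The log2 fold change was 0.082 (SE 0.096, 95% interval -0.12 to 0.29, edgeR adjusted p = 0.54). The interval spans folds from 0.919 to 1.22, so a change as large as that of Tfe3 lies outside it.

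**Figure D2:**
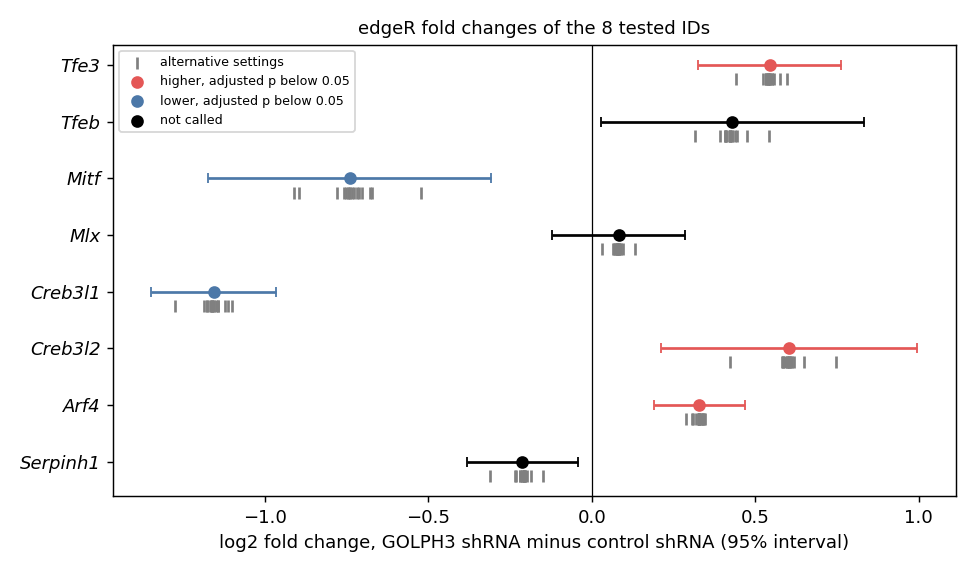
Log2 fold changes (x axis, GOLPH3 shRNA minus control shRNA) of the 8 tested IDs with 95% intervals from the edgeR fit, red for IDs called higher, blue for IDs called lower and black for IDs not called. Grey ticks give the value under each of the 16 alternative settings, all of which lie on the same side of 0 as the main value for each gene.

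Among all tested IDs the genes lay on both sides of the distribution. Creb3l1 and Mitf stood in the lower tail, where 2.36% and 7.74% of tested IDs had a lower log2 fold change. Creb3l2, Tfe3, Tfeb and Arf4 stood on the upper side, with 9.76%, 11.7%, 16.9% and 23.0% of tested IDs above them. Serpinh1 lay on the lower side, nearer the middle than Mitf, with 32.2% of tested IDs below it. Mlx lay near the middle, with 56.9% of tested IDs below it.

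**Figure D3:**
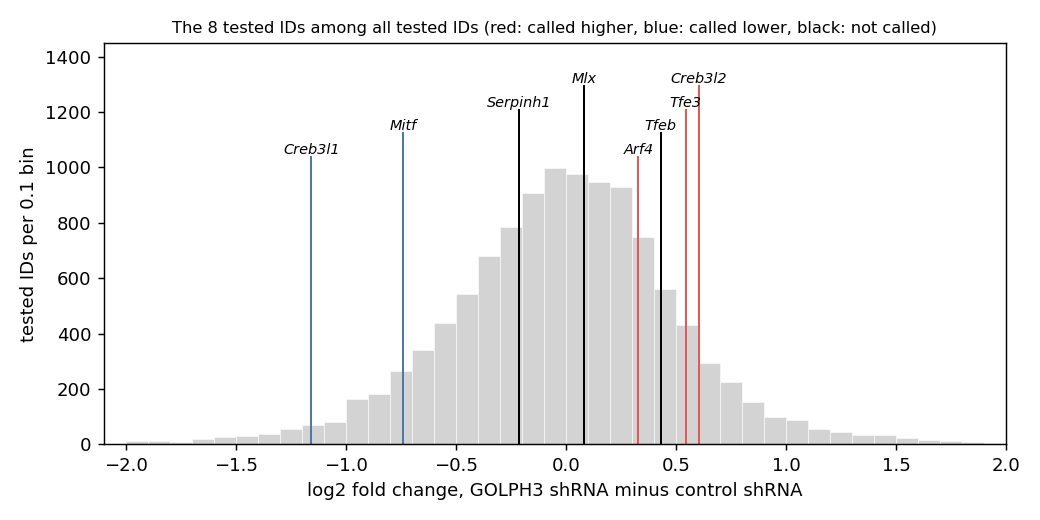
Number of tested IDs (y axis) per bin of log2 fold change (x axis, GOLPH3 shRNA minus control shRNA, bins of 0.1, range limited to the central part), with lines at the 8 tested genes, red for called higher, blue for called lower and black for not called. Creb3l1 at -1.16 and Mitf at -0.74 lie to the left of the centre, and Creb3l2 at 0.60 and Tfe3 at 0.54 to the right. Above the latter genes lay 9.76% and 11.7% of tested IDs.

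Ratios of counts between 2 of the genes within a library do not depend on how libraries are scaled, and their difference between the groups does not depend on gene length. The 5 ratios were chosen after the values had been seen. They restate the values of the single genes, and their p-values give no further support. For Creb3l1 to Creb3l2 and for Mitf to Tfe3, both genes separated in opposite directions, so ratios without overlap follow from that. With 3 against 3 libraries the exact two-sided permutation test cannot give a p below 0.1. The log2 ratio of Creb3l1 to Creb3l2 was 4.03, 3.95 and 3.94 in the control libraries and 2.44, 1.82 and 2.43 in the GOLPH3 shRNA libraries. It differed by -1.74 between the group means, the widest shift of the 5 ratios, and the groups did not overlap (exact permutation p = 0.1, adjusted over 5 ratios p = 0.125).

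The log2 ratio of Mitf to Tfe3 was -0.75, -1.20 and -1.55 in the control libraries and -2.75, -2.04 and -2.50 in the GOLPH3 shRNA libraries, a difference of -1.26 without overlap (exact permutation p = 0.1). The log2 ratio of Tfeb to Tfe3 averaged -2.09 ± 0.080 under control shRNA and -2.21 ± 0.28 under GOLPH3 shRNA (SD, n = 3), and the groups overlapped (exact permutation p = 0.5). The log2 ratio of Mlx to Tfe3 moved from 0.21 ± 0.014 to -0.25 ± 0.26 (SD, n = 3), a difference of -0.46 without overlap (exact permutation p = 0.1). The small control SD of this ratio does not measure its precision, as for the control values of both genes. The log2 ratio of Serpinh1 to Arf4 moved from 1.14 ± 0.19 to 0.61 ± 0.082 (SD, n = 3), a difference of -0.53 without overlap (exact permutation p = 0.1). Relative to Tfe3, the counts of Mitf and Mlx were thus lower with GOLPH3 shRNA than with control shRNA in all libraries, and those of Tfeb were not.

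**Figure D4:**
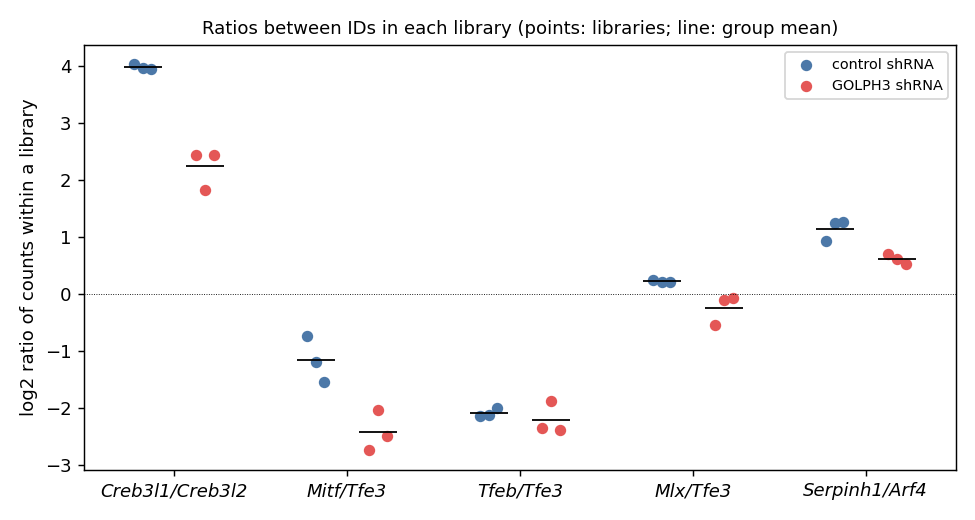
Log2 ratio of the counts of 2 IDs within a library (y axis) for 5 pairs (x axis), with control shRNA libraries in blue, GOLPH3 shRNA libraries in red and a line at each group mean. The groups are apart for every pair but Tfeb to Tfe3, and the widest gap is that of Creb3l1 to Creb3l2. The pairs were chosen after the values had been seen, and how often other pairs of IDs are apart was not measured. Among single IDs, 46.3% of all tested IDs had groups without overlap.

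The likeness of profiles was measured as the Euclidean distance over the 6 libraries between log2 CPM values (prior count 2) centred on the control mean. For Arf4 the nearest of the other tested genes was Tfeb (distance 0.44), with Mlx next (0.44) and then Tfe3 (0.46). For Tfe3 the nearest was Tfeb (0.46), followed by Arf4 (0.46). Both were farthest from Creb3l1 (2.94 from Tfe3 and 2.60 from Arf4). The distances to these nearest genes were close to one another, and Creb3 has no profile to compare. With values centred on the control mean, the distances largely restate the fold changes of the single genes. They give no further support for a shared profile. No order of level between the 9 genes is given, since gene lengths were not used here.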

How the data were processed

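RNA sequencing of 6 samples labelled MKN45 was used, 3 per group, grouped by the sample titles. The values are estimated counts per gene ID as deposited by the authors, not scaled between libraries. The build is mm10, per the submitters' processing notes. The aligner, quantifier, annotation release and strand setting were not given in the sources used here. Estimated counts were rounded, IDs were filtered with filterByExpr, and all 11400 retained IDs were tested in 1 fit with edgeR 4.0.16 (R 4.3.3, trimmed mean factors, quasi-likelihood F test, Benjamini-Hochberg adjustment over all tested IDs, calls at adjusted p below 0.05). Each SE was obtained by dividing the log2 fold change by √F. The edgeR fit was also run on counts simulated from its own mean levels and dispersions. That run cannot check whether these assumptions hold for the data, nor the SEs. CPM is the rounded count divided by an effective library size, times 1e6. That size is the library's total over the retained IDs times its trimmed mean factor. Alternatives used DESeq2 1.42.0, limma-voom (limma 3.58.1), a test against a minimum of 1.5-fold, different filters and scalings, the number in the titles as a block, thinning and omission of each library. All 9 genes are named. The genes and lists were chosen with earlier results of these data known. Lists of other Golgi stress genes and of cell type markers, written by symbol, could not be matched to IDs. Promoter windows were matched by symbol to human RefSeq genes.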

Additional observations from a re-analysis of the deposited data

How the results depend on the processing

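Across 16 alternatives the direction of all 8 tested genes was kept. Creb3l1 was called in all of them (log2 fold change -1.27 to -1.10), and Tfeb (0.32 to 0.54) and Mlx (0.032 to 0.13) in none. A test against a minimum of 1.5-fold is stricter by construction: it called 144 IDs higher and 219 lower, and of the genes described 0 higher and 1 lower (Creb3l1), with calls lost for Tfe3 (0.54), Mitf (-0.74), Creb3l2 (0.60) and Arf4 (0.33). Tfe3 and Arf4 were called in the other 15. Leaving out 1 library at a time gave 2 to 3 genes called higher and 1 to 2 lower, from 1425 to 1665 IDs higher and 1644 to 1929 lower, and values from -0.91 to -0.52 for Mitf, 0.42 to 0.75 for Creb3l2 and -0.31 to -0.15 for Serpinh1. Serpinh1 was called lower with library totals alone (-0.22, edgeR adjusted p = 0.028), with no filter (-0.23, edgeR adjusted p = 0.0091), with at least 1 CPM in 3 libraries (-0.22, edgeR adjusted p = 0.049), with DESeq2 (-0.21, adjusted p = 0.035) and with limma-voom (-0.21, adjusted p = 0.0499); the cause was not tested. Its adjusted p ranged from 0.0025 to 1 over the alternatives. With the replicate block 1842 IDs were higher and 2045 lower, and the same calls were made among the 9 genes (Tfe3 0.54, Creb3l1 -1.16, Arf4 0.33). Deviations of same-numbered samples from their group means correlated at 0.032, 0.090 and 0.044, which does not settle whether the numbers pair samples. The median over all IDs shifted by less than 0.1 under every scaling. Tfeb, Mitf and Creb3l2 had at most 100, 187 and 139 counts in a library. Thinning all libraries to the smallest total kept the calls of Mitf (edgeR adjusted p = 0.015) and Creb3l2 (edgeR adjusted p = 0.015), and what limits these genes was not tested further.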
